A study of Mus musculus with 7 samples.

Results

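The 9 mature miRNAs described here are mmu-miR-126-5p, mmu-miR-126-3p, mmu-miR-142-5p, mmu-miR-142-3p, mmu-miR-150-5p, mmu-miR-203-3p, mmu-miR-205-5p, mmu-miR-205-3p and mmu-miR-21-5p, written below without the species prefix. They were taken by name from a table of 959 mature miRNA names, as miRNAs known from endothelium, blood, skin epithelium or differentiated tissue in general. They come from 6 hairpins, and each has 1 row in the table. The table counts small RNAs from mouse embryonic stem cells on an Argonaute-null background, grown on gelatin with serum and leukemia inhibitory factor. Flag-tagged Ago2 was precipitated from them with an anti-Flag antibody. The libraries came from Ago2 K566A, Ago2 Q548A, Ago2 R792A C793A, Ago2 GKT GKGT, Ago2 PGKTP AAAAA and Ago2 WT, and from a control labelled empty, with 1 library each. Neither the promoter that drove the tagged Ago2 nor the number of clones was stated in the labels.

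Argonaute proteins hold 1 strand of a small RNA duplex as a guide and discard the other. The 5′ end of the guide sits in a pocket of the MID domain, where K566 and Q548 lie, and a loop of that domain, named in the GKT GKGT and PGKTP AAAAA labels, faces its first base. R792 and C793 lie in the PIWI domain. The question named in the title is whether strand choice is driven by Argonaute. The miRNAs described here are known as marks of other lineages, and embryonic stem cells are known instead for the miR-290 and miR-302 clusters.

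The mature sequences are shown because the arms of a hairpin moved apart in several libraries and the arms differ in their first base. RefSeq (GRCm38.p6) gave sequences for 7 of the 9 miRNAs, and not for miR-126-5p and miR-150-5p. It also gave the 3 other arms of these hairpins, miR-150-3p, miR-203-5p and miR-21-3p. RefSeq names miR-126-3p, both miR-142 arms and both miR-21 arms with the suffix a. Capitals mark the seed, bases 2 to 8, which pairs with target transcripts. No seed was shared among these sequences, and in RefSeq only miR-21-5p shared its seed with another mature miRNA, miR-21c, which was not analysed here. Sequences are written 5′ to 3′.
miR-126-3p: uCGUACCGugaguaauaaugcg
miR-142-5p: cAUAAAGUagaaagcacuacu
miR-142-3p: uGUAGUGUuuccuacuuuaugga
miR-150-3p: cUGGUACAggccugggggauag
miR-203-3p: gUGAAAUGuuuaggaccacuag
miR-205-5p: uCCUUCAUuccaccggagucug
miR-205-3p: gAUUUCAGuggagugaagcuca
miR-21-5p: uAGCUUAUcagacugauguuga
miR-21-3p: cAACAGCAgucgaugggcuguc
Thus miR-126-3p, miR-142-3p, miR-205-5p and miR-21-5p begin with U. The arms miR-142-5p, miR-150-3p and miR-21-3p begin with C, and miR-203-3p and miR-205-3p begin with G.

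Each level is given as counts per 1000000 of the library (CPM), with an exact Poisson 95% interval that covers counting error only. The 5 mutant libraries held between 14914048 (K566A) and 94700428 (Q548A) counts, wild type 94842507 and the empty control 33461. Where a miRNA has 0 counts, up to 3 remain possible, or 0.0316 CPM in wild type and 89.7 CPM in the empty control. A miRNA entered a comparison with wild type when its mean over the 6 Ago2 libraries reached 10 CPM, which 7 of the 9 did (miR-142-5p averaged 8.98 CPM and miR-205-3p averaged 1.37 CPM). A call required that the whole exact conditional 95% interval of the ratio lie above 2 (higher) or below 0.5 (lower). Each genotype has 1 library, so differences have no replicate check and carry no p-value, and each comparison is of 2 libraries. Fewer cells of a type and less of an RNA per cell cannot be told apart in such samples.

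Stem cell miRNAs made up most of the counts. The 11 markers listed for that cell type summed to 591238 CPM in K566A and to between 722358 and 789117 CPM in the 4 other mutants, against 760017 CPM in wild type, with 766594 CPM in the empty control. The single miRNA miR-292-5p took 21.7% of counts in K566A and 57.3% to 70.5% in the other mutants, against 63.7% in wild type. The lower sum in K566A did not hold for most markers. Of the 10 that entered the comparison with wild type, 6 were called higher there and 1, miR-292-5p (log2 ratio -1.55), lower. Their median log2 ratio was 1.52, beside 0.91 over all miRNAs, of which 47.5% were called higher and 19.6% lower. The 6 fibroblast markers summed to 4093 CPM in K566A and to between 514 and 1189 CPM in the other mutants, against 1056 CPM in wild type, with 1166 CPM in the empty control. Most of that sum was miR-143-3p, with 3968 CPM in K566A against 995 CPM in wild type. Of the 3 fibroblast markers that entered the comparison with wild type, 2 were called higher in K566A and 0 lower. Besides miR-143-3p, the marker called higher was miR-10b-5p, with 102.6 CPM in K566A against 29.2 CPM in wild type. The remaining marker that entered, miR-199a-5p, did not rise, with 9.66 CPM in K566A against 10.4 CPM in wild type. Under the filter, miR-145-5p had 0.134 CPM against 13.6 CPM, and miR-199a-3p had 12.9 CPM against 8.03 CPM. These miRNAs are named because of their values. Another marker, miR-214-3p, was at or near 0, with at most 0.120 CPM. The part of other cell types in the results below was not tested.

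All 9 miRNAs had counts in wild type. Together they held 0.357% of counts in K566A and between 0.0764% (GKT_GKGT) and 0.149% (R792A_C793A) in the other mutants, against 0.0975% in wild type, with 0.245% in the empty control. The most abundant in wild type was miR-150-5p, known from mature lymphocytes, at 487 CPM. The next were miR-205-5p (221.7 CPM), miR-126-3p (154.8 CPM) and miR-21-5p (65.9 CPM), and the other 5 lay between 0.696 and 15.8 CPM. Over the 6 Ago2 libraries the level of a miRNA varied least for miR-205-5p, by 2.68-fold between its highest and lowest library, and most for miR-126-3p (9.41-fold) and miR-21-5p (9.37-fold), apart from miR-205-3p, which reached 0. When the 6 Ago2 libraries were ordered by level for each of the 9 miRNAs, 38 of 45 neighbouring pairs differed by more than counting error and 7 did not. The same count was not made over all miRNAs, so nothing particular to these 9 is read from it.

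**Figure D1:**
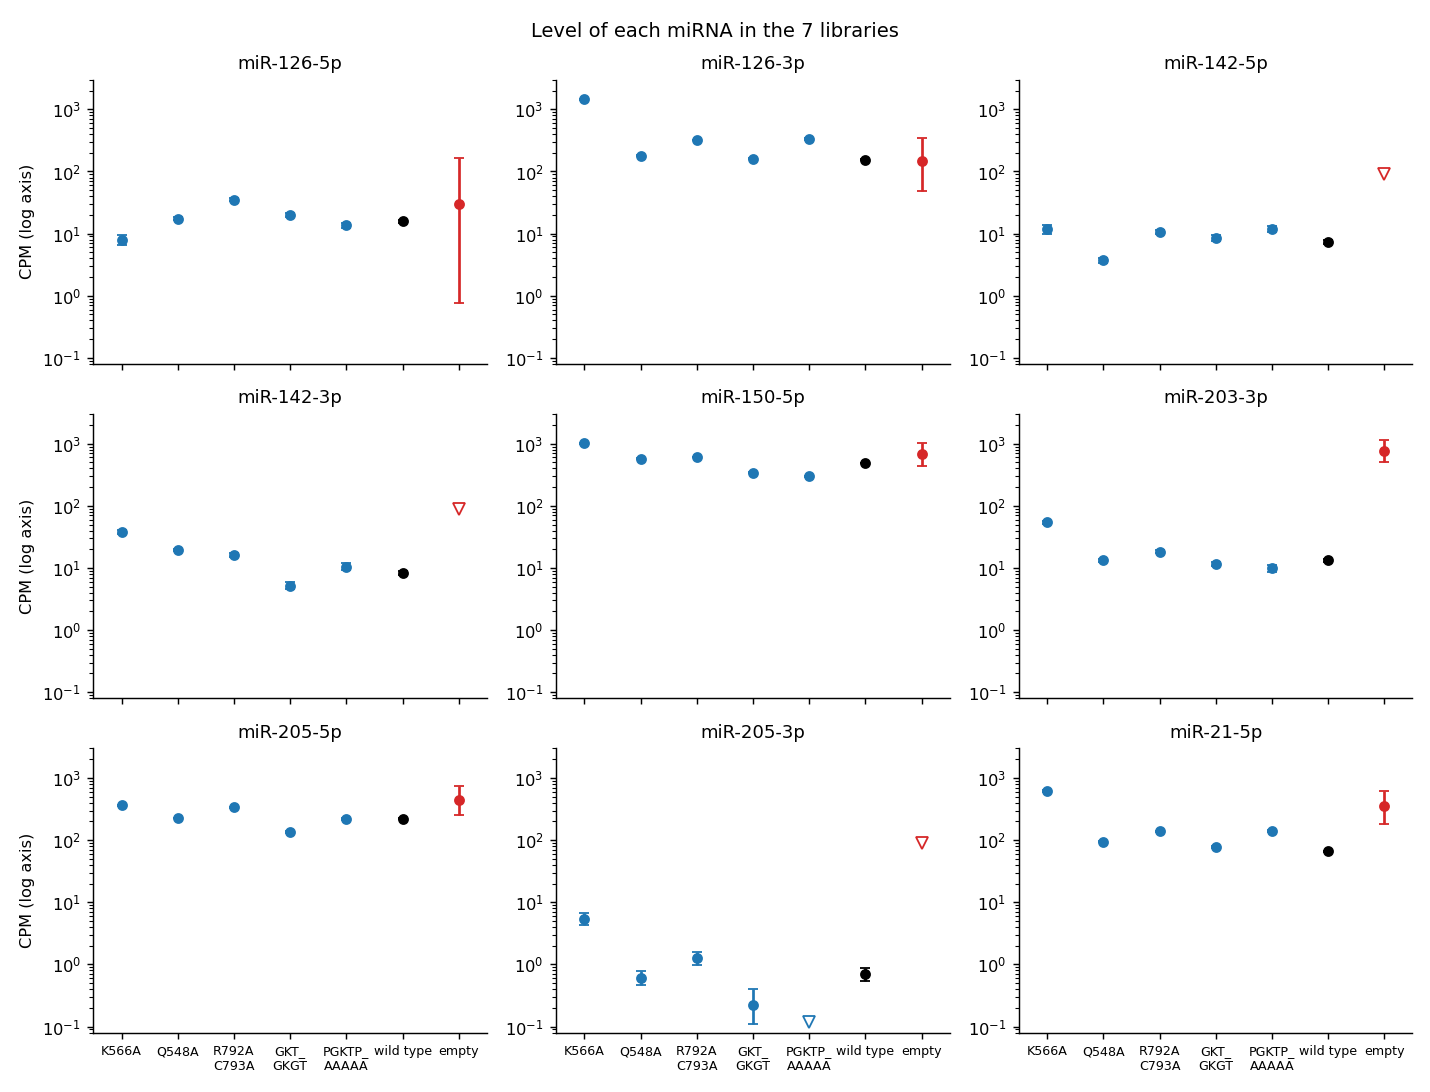
Level of each miRNA in CPM on a log axis in the 5 mutant libraries (blue), wild type (black) and the empty control (red), 1 library each; bars are exact Poisson 95% intervals and open triangles mark a count of 0 at the level of 3 counts. miR-126-3p and miR-21-5p stand highest in K566A (1458 and 618 CPM), and miR-203-3p stands highest in the empty control (777 CPM).

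The hairpin of miR-126 lies in the gene Egfl7, on the same strand, in GENCODE M21, and its 3p arm is the main miRNA of endothelial cells, where it is known to restrain Spred1. The 3p arm is at chromosome 2, 26446922 to 26446943 (mm9), and the 5p arm at 26446885 to 26446905. miR-126-3p had 1458 CPM in K566A, 180 CPM in Q548A, 322 CPM in R792A_C793A, 162 CPM in GKT_GKGT and 333 CPM in PGKTP_AAAAA, against 154.8 CPM in wild type. It was thus highest in K566A by 4.38-fold over the next library, and lowest in wild type. Relative to wild type the log2 ratio was 3.23 in K566A (95% interval 3.20 to 3.27), 1.06 in R792A_C793A (1.03 to 1.09) and 1.10 in PGKTP_AAAAA (1.06 to 1.14), each called higher. In Q548A (0.22) and GKT_GKGT (0.06) it was not called.

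The other arm, miR-126-5p, went its own way in K566A. It had 7.91 CPM in K566A, 17.4 CPM in Q548A, 35.2 CPM in R792A_C793A, 20.04 CPM in GKT_GKGT and 13.6 CPM in PGKTP_AAAAA, against 15.8 CPM in wild type. K566A was the lowest library for this arm and the highest for its partner. The log2 ratio to wild type in K566A was -0.998 (-1.28 to -0.73), which is not past the threshold, and R792A_C793A was called higher (1.16, 1.06 to 1.25). Within the hairpin the 5p arm made up 0.54% of counts in K566A (Wilson 95% interval 0.451 to 0.646) and 3.92% in PGKTP_AAAAA (3.53 to 4.35), against 9.26% in wild type (8.82 to 9.72). The log2 odds of the 5p arm fell by 4.23 in K566A (interval -4.52 to -3.96) and by 1.32 in PGKTP_AAAAA (-1.50 to -1.15). The shares in Q548A (8.83%), R792A_C793A (9.85%) and GKT_GKGT (11.02%) were not called against wild type. Library size cancels in these odds. The log2 ratios of miR-126-5p and miR-126-3p over the 5 mutants differed by a root mean square of 1.99, while miR-669f-3p (0.22), miR-30d-5p (0.36) and miR-1306-5p (0.44) had the patterns closest to the 5p arm.

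miR-21-5p, a miRNA abundant in most differentiated tissues and known to repress Pdcd4, followed miR-126-3p closely. Its locus is at chromosome 11, 86397622 to 86397643 (mm9), and its hairpin overlaps Vmp1 on the same strand in GENCODE M21. It had 618 CPM in K566A, 95.2 CPM in Q548A, 138 CPM in R792A_C793A, 77.3 CPM in GKT_GKGT and 139 CPM in PGKTP_AAAAA, against 65.9 CPM in wild type. K566A was 4.45-fold above the next library, and PGKTP_AAAAA and R792A_C793A did not differ beyond counting error. The log2 ratios were 3.23 in K566A (3.18 to 3.28), 1.07 in R792A_C793A (1.02 to 1.12) and 1.07 in PGKTP_AAAAA (1.014 to 1.13), each called higher, and 0.53 in Q548A and 0.23 in GKT_GKGT. Over the 5 mutants the log2 ratios of miR-21-5p and miR-126-3p differed by a root mean square of 0.16. The closest other miRNA to either was miR-335-3p, at 0.24 from miR-21-5p and 0.31 from miR-126-3p. After it came miR-708-5p (0.27) and miR-124-3p (0.33) for miR-21-5p, and miR-124-3p (0.31) and miR-497-5p (0.35) for miR-126-3p. These distances rest on the same 5 mutant libraries and 1 wild-type library.

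The passenger arm miR-21-3p was rare but stood out in GKT_GKGT. It had 0.738 CPM in K566A, 0.37 CPM in Q548A, 0.874 CPM in R792A_C793A, 3.91 CPM in GKT_GKGT and 1.48 CPM in PGKTP_AAAAA, against 0.411 CPM in wild type. Its share of the hairpin was 4.81% in GKT_GKGT (4.19 to 5.52), against 0.62% in wild type (0.454 to 0.846), a log2 odds change of 3.004 (2.51 to 3.56). In K566A the share was 0.119%, from 11 counts, and the log2 odds fell by 2.34 (-3.50 to -1.39). That fall was no longer called once wild type was thinned at random to the total of K566A, where it was -2.36. The random thinning was not repeated with other draws.

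In K566A 5 of the 7 miRNAs that entered the comparison were called higher and none was called lower, while 160 of all 337 miRNAs tested (47.5%) were called higher there and 66 (19.6%) lower. The median log2 ratio of all miRNAs was 0.91. miR-142-3p (2.19, 2.03 to 2.35) and miR-203-3p (2.02, 1.89 to 2.15) lay above that median, and miR-150-5p (1.05, 1.03 to 1.08) lay near it. miR-205-5p (0.72) was not called. Below the level filter, miR-205-3p had a log2 ratio of 2.96 (2.48 to 3.46) and miR-142-5p of 0.65. Median-of-ratios scaling moves every log2 ratio to wild type by -0.96 in K566A, -0.38 in R792A_C793A, 0.23 in GKT_GKGT and 0.64 in PGKTP_AAAAA. With it, 102 miRNAs were higher and 110 lower in K566A. The calls left among the 7 miRNAs that entered were then miR-126-3p, miR-142-3p and miR-21-5p as higher and miR-126-5p as lower (-1.95).

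**Figure D2:**
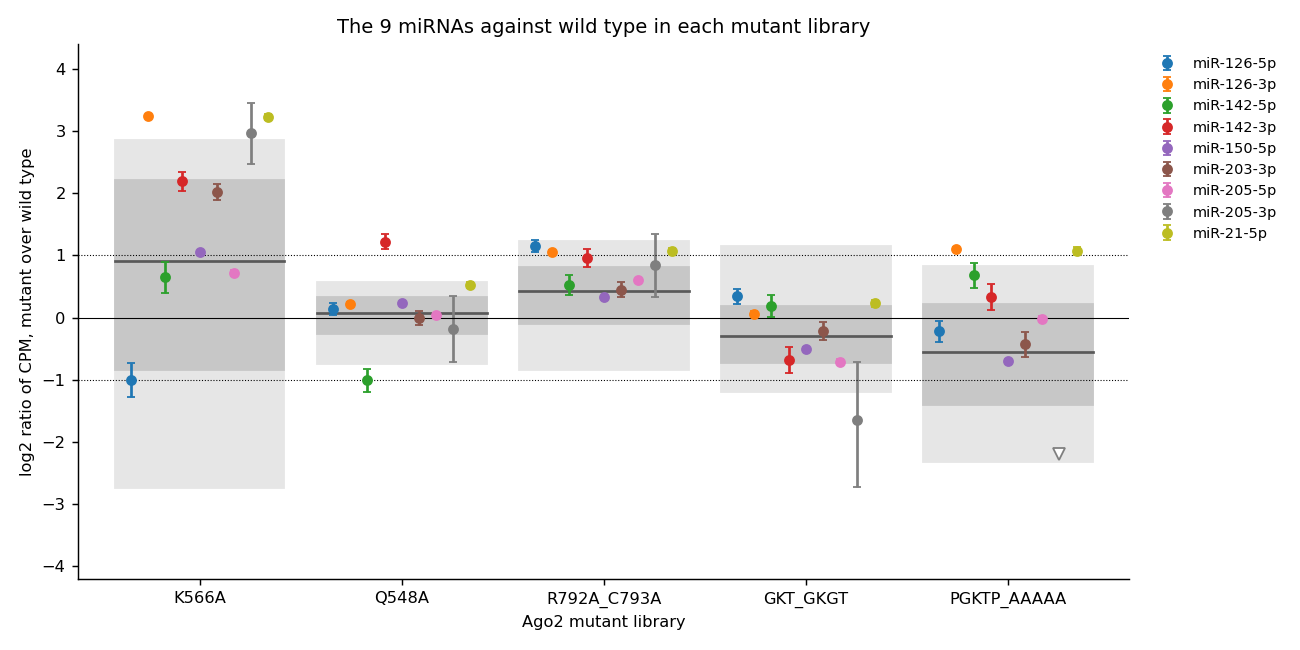
Log2 ratio of CPM of each miRNA in each mutant over wild type, with exact 95% intervals; light and dark grey boxes span the 10th to 90th and the 25th to 75th percentiles of all miRNAs tested, the grey line is their median, and dotted lines mark 2-fold. The open triangle is the upper end of the interval of miR-205-3p in PGKTP_AAAAA, where it had 0 counts. miR-126-3p and miR-21-5p lie at 3.23 in K566A, and miR-126-5p lies at -0.998.

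miR-142, made throughout the blood lineage, is one of the hairpins of which both arms are kept in blood cells. Its arms are at chromosome 11, 87570369 to 87570389 (5p) and 87570405 to 87570427 (3p) in mm9, and the hairpin lies in an intron of Mir142hg in GENCODE M21. miR-142-3p had 37.95 CPM in K566A, 19.4 CPM in Q548A, 16.2 CPM in R792A_C793A, 5.18 CPM in GKT_GKGT and 10.5 CPM in PGKTP_AAAAA, against 8.32 CPM in wild type. miR-142-5p had 11.7 CPM in K566A, 3.71 CPM in Q548A, 10.7 CPM in R792A_C793A, 8.50 CPM in GKT_GKGT and 11.9 CPM in PGKTP_AAAAA, against 7.44 CPM in wild type. The 3p arm was thus lowest in GKT_GKGT, and the 5p arm was lowest in Q548A. For the 5p arm, PGKTP_AAAAA did not differ from K566A beyond counting error, nor K566A from R792A_C793A. Over the 5 mutants the patterns closest to miR-142-3p were those of miR-467e-5p (root mean square difference 0.39), miR-32-5p (0.44) and miR-19b-3p (0.45).

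Q548A was otherwise close to wild type, with 6 of 337 miRNAs (1.78%) called higher and 15 (4.45%) lower. Of the 7 miRNAs that entered, miR-142-3p alone was called, at a log2 ratio of 1.22 (1.10 to 1.35), while miR-142-5p was at -1.01 (-1.19 to -0.82) below the filter. The 5p share of the hairpin was 16.03% in Q548A (14.6 to 17.6), against 47.2% in wild type (44.7 to 49.8). The log2 odds of the 5p arm fell by 2.23 in Q548A (-2.45 to -2.00), a comparison in which 34 hairpins (9.94% of all compared) were called in either direction. In K566A the share was 23.5% (20.6 to 26.7), and the log2 odds fell by 1.54 (-1.84 to -1.25). The 5p arm was the larger one in GKT_GKGT (62.2%, 58.4 to 65.7), where its change in log2 odds of 0.87 (0.60 to 1.15) was not past the threshold. It was 39.8% in R792A_C793A and 53.2% in PGKTP_AAAAA, neither of them called.

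miR-150-5p is known to repress Myb in lymphocytes, and its locus is at chromosome 7, 52377132 to 52377153 (mm9). It had 1011 CPM in K566A, 576 CPM in Q548A, 612 CPM in R792A_C793A, 343 CPM in GKT_GKGT and 301 CPM in PGKTP_AAAAA, against 487 CPM in wild type. Ordered by level, each neighbouring pair differed by more than counting error. K566A alone was called against wild type, and the call was lost with median-of-ratios scaling, where the log2 ratio was 0.10. Its 3 closest patterns among other miRNAs were those of miR-93-5p (root mean square difference 0.17), miR-467a-5p (0.24) and miR-26b-5p (0.25).

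The other arm, miR-150-3p, gave the largest called rise in odds among the arms with fewer counts of the 6 hairpins. It had 12.6 CPM in K566A, 6.36 CPM in Q548A, 7.92 CPM in R792A_C793A, 128.8 CPM in GKT_GKGT and 42.7 CPM in PGKTP_AAAAA, against 10.7 CPM in wild type. Both loop mutants stood above the other libraries. The 3p share was 27.3% in GKT_GKGT (26.7 to 27.9) and 12.5% in PGKTP_AAAAA (11.8 to 13.2), against 2.15% in wild type (2.03 to 2.29). The log2 odds rose by 4.09 in GKT_GKGT (3.99 to 4.19) and by 2.69 in PGKTP_AAAAA (2.56 to 2.82). In GKT_GKGT this was the 6th largest rise of all hairpins compared. In K566A, Q548A and R792A_C793A the share lay between 1.09% and 1.28%, and the changes in log2 odds (-0.82, -0.99 and -0.77) were not past the threshold.

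**Figure D3:**
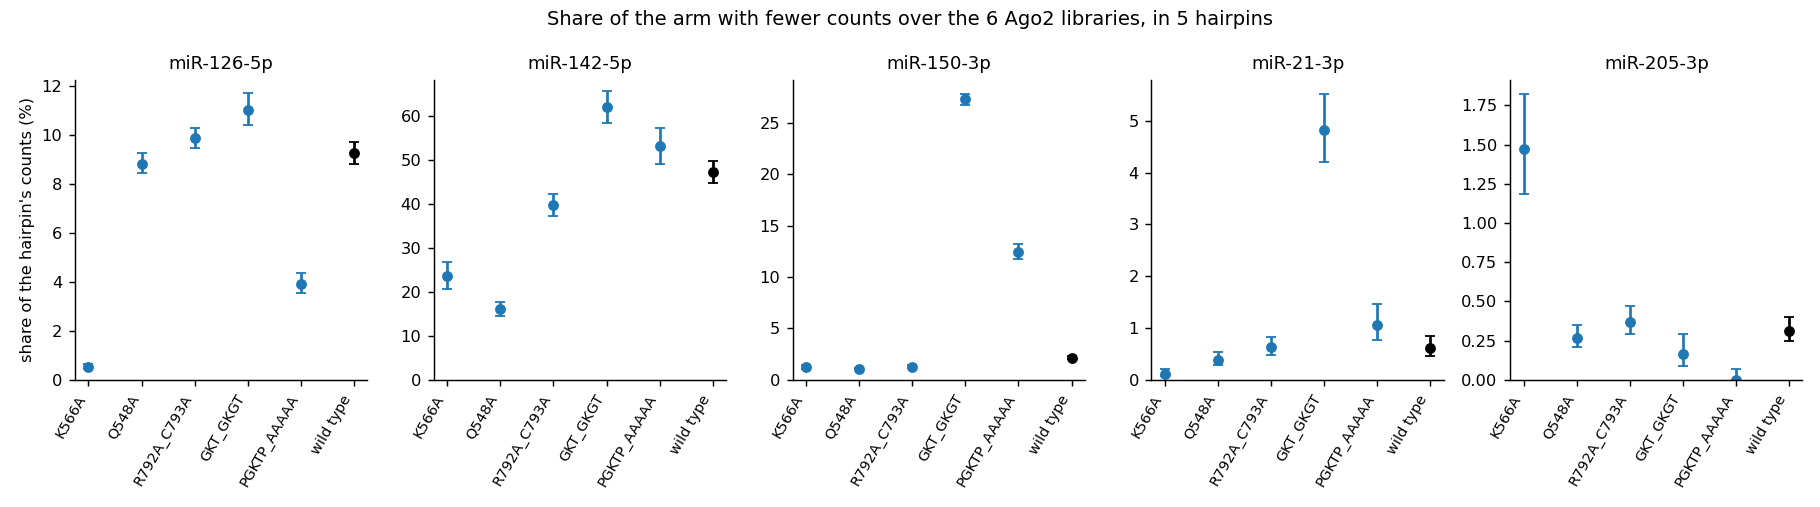
Share of the arm with fewer counts over the 6 Ago2 libraries together, in percent of the hairpin's counts, for miR-126, miR-142, miR-150, miR-21 and miR-205, in the 5 mutants (blue) and wild type (black); bars are Wilson 95% intervals and each panel has its own axis from 0. miR-126-5p is lowest in K566A (0.54%), miR-142-5p in Q548A (16.03%), and miR-150-3p (27.3%) and miR-21-3p (4.81%) are highest in GKT_GKGT.

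miR-205-5p is known from stratified epithelium and represses Zeb1 and Zeb2. Its arms are at chromosome 1, 195333697 to 195333718 (5p) and 195333661 to 195333682 (3p) in mm9, and the hairpin overlaps an exon of the long noncoding RNA 4631405K08Rik in GENCODE M21. miR-205-5p had 364 CPM in K566A, 228 CPM in Q548A, 336 CPM in R792A_C793A, 136 CPM in GKT_GKGT and 219 CPM in PGKTP_AAAAA, against 221.7 CPM in wild type. It was called in none of the 5 mutants, with log2 ratios from -0.71 (GKT_GKGT) to 0.72 (K566A), and wild type and PGKTP_AAAAA did not differ beyond counting error. The patterns closest to it were those of miR-200a-3p (root mean square difference 0.23), miR-381-3p (0.24) and miR-30c-5p (0.28).

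The 3p arm of miR-205 was rare, and its values rest on few counts. It had 81 counts (5.43 CPM) in K566A, 58 (0.612 CPM) in Q548A, 70 (1.25 CPM) in R792A_C793A, 11 (0.222 CPM) in GKT_GKGT and 0 in PGKTP_AAAAA, against 66 (0.696 CPM) in wild type. K566A and PGKTP_AAAAA were thus at opposite ends. The share of the arm was 1.47% in K566A (1.18 to 1.82), against 0.313% in wild type (0.246 to 0.398), a rise of 2.25 in log2 odds (1.76 to 2.74). In PGKTP_AAAAA, with 0 counts, both the level and the odds were called lower than in wild type, with the upper ends of their log2 intervals at -2.19 for the level and -2.17 for the odds. The changes in Q548A, R792A_C793A and GKT_GKGT were not called.

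Read by hairpin, calls of the arm odds in the 6 hairpins were made in K566A for miR-126, miR-142, miR-21 and miR-205, in Q548A for miR-142, in GKT_GKGT for miR-150 and miR-21, and in PGKTP_AAAAA for miR-126, miR-150 and miR-205. No call was made in R792A_C793A. Of all hairpins compared, the share called was 38.6% for K566A, 22.2% for R792A_C793A, 29.5% for GKT_GKGT and 26.3% for PGKTP_AAAAA. Of the called arms that begin with C in the sequences above, miR-142-5p lost share in K566A and Q548A, miR-21-3p lost share in K566A (a call lost on thinning) and gained it in GKT_GKGT, and miR-150-3p gained share in GKT_GKGT and PGKTP_AAAAA. The G-first miR-205-3p gained share in K566A and lost it in PGKTP_AAAAA. First bases were not compared over all hairpins.

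miR-203-3p, a skin miRNA known to repress p63 as keratinocytes leave the basal layer, was the miRNA of these 9 that stood apart in the empty control. Its locus is at chromosome 12, 113369138 to 113369159 (mm9). It had 54.2 CPM in K566A, 13.4 CPM in Q548A, 18.3 CPM in R792A_C793A, 11.5 CPM in GKT_GKGT, 9.95 CPM in PGKTP_AAAAA and 13.4 CPM in wild type, against 777 CPM in the empty control (508 to 1139). In counts it had 1268 of 94842507 in wild type, against 26 of 33461 in the empty control, where the wild-type level would give 0.447 counts. The log2 ratio to the empty control was -3.84 in K566A (-4.40 to -3.22) and -5.86 in wild type (-6.42 to -5.24), and over the 6 Ago2 libraries the level was 14.3-fold to 78.1-fold lower. By rank it was the 209th miRNA in K566A and the 296th in wild type, against the 58th in the empty control. Among the Ago2 libraries it rose in K566A, and wild type and Q548A did not differ beyond counting error, nor did GKT_GKGT and PGKTP_AAAAA. The rise in K566A was not called with median-of-ratios scaling (1.06). Its closest patterns over the 5 mutants were those of miR-27b-3p (0.12), miR-470-5p (0.13) and miR-34a-5p (0.16). The other arm, miR-203-5p, had 6 counts in Q548A and 0 in each other library, the empty control included.

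The same comparison was made for all miRNAs. In the empty control 96 miRNAs had at least 10 counts, a limit chosen after the values were seen. Among these 96, let-7b-5p alone had a lower ratio of wild type to empty control (-7.09 on the log2 scale) than miR-203-3p. Next came let-7c-5p (-3.27) and let-7a-5p (-2.97). The limit uses the empty-control count, which is also in the ratio. miR-203-3p passed it only through that count (26, where the wild-type level would give 0.447), so no conclusion is drawn from its place. Outside the limit, some miRNAs with 1 count (29.9 CPM) in the empty control had lower ratios still. Among them were miR-5117-3p (0.0211 CPM in wild type), miR-19b-1-5p (0.0633 CPM), miR-206-3p (0.200 CPM) and miR-299b-3p (0.211 CPM). The let-7 miRNAs and these miRNAs with 1 count are named because of their values. Of the 337 miRNAs past the 10 CPM filter, K566A had 10.1% called lower than in the empty control, Q548A 1.48%, R792A_C793A 1.78%, GKT_GKGT 6.53%, PGKTP_AAAAA 10.4% and wild type 2.08%. With the stricter level of 100 CPM, which leaves out miR-203-3p, 152 miRNAs were tested, and 2.63% were lower and 1.32% higher in wild type.

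**Figure D4:**
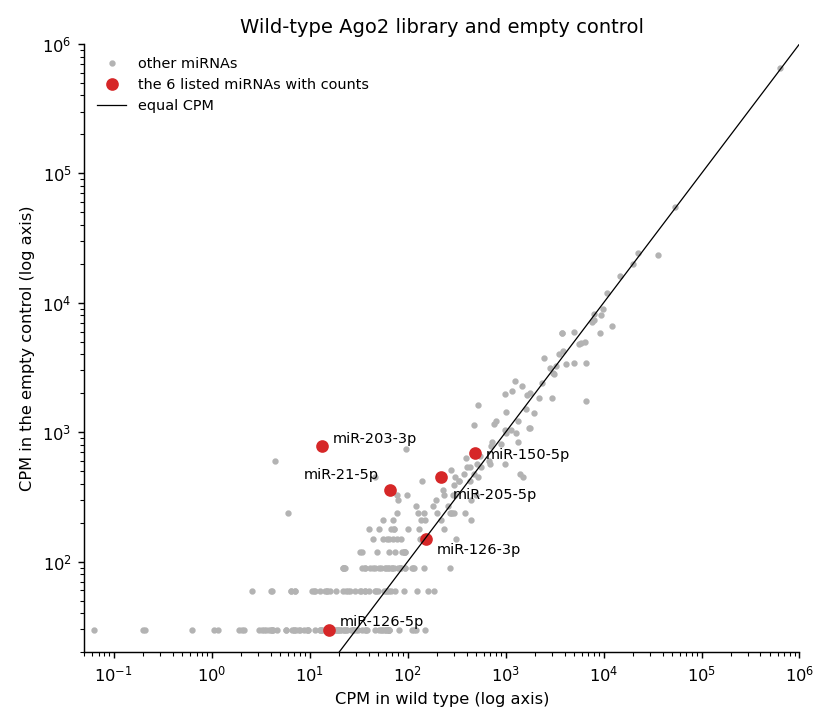
CPM in the empty control (vertical) against CPM in wild-type Ago2 (horizontal), both on log axes, for miRNAs with a count in both libraries; the line marks equal CPM and the rows of points at the bottom are 1 and 2 counts. miR-203-3p (13.4 CPM in wild type, 777 CPM in the empty control) and miR-21-5p (65.9 and 359 CPM) lie above the line. miR-205-5p (221.7 and 448 CPM), miR-150-5p (487 and 687 CPM) and miR-126-5p (15.8 and 29.9 CPM) lie above it too, and miR-126-3p (154.8 and 149 CPM) lies below.

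Of the 4 listed miRNAs that reached 100 CPM, miR-21-5p was also lower in wild type than in the empty control. It had 65.9 CPM in wild type, against 359 CPM (185 to 626) from 12 counts in the empty control, a log2 ratio of -2.44 (-3.25 to -1.49). In GKT_GKGT the ratio was -2.21 (-3.02 to -1.26), where 10.5% of the 152 miRNAs were called lower. That call was lost with median-of-ratios scaling (-1.36). miR-126-3p had 1458 CPM in K566A, against 149 CPM (48.5 to 349) from 5 counts in the empty control. Its log2 ratio there was 3.29 (2.06 to 4.91), one of 35 miRNAs (23%) called higher in K566A. In wild type it was at 0.05 (-1.17 to 1.67).

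miR-150-5p and miR-205-5p were not called in any Ago2 library against the empty control, where they had 23 counts (687 CPM) and 15 counts (448 CPM). In Q548A, R792A_C793A and PGKTP_AAAAA none of the 4 was called, beside 1.32%, 3.29% and 15.8% of all 152 miRNAs called in either direction. In the empty control miR-126-5p had 1 count, and miR-142-5p, miR-142-3p and miR-205-3p had 0, which allows up to 89.7 CPM. The levels of these 3 in each Ago2 library were below that limit, so a higher level in an Ago2 library than in the empty control was not detectable at this depth.

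Other miRNAs of the same tissues were listed for context, 22 in all, of which 21 were in the table and 16 entered the comparison with wild type. In K566A 12 of the 16 were higher and 1 was lower, with a median log2 ratio of 1.69 beside 0.91 over all miRNAs, of which 47.5% were higher and 19.6% lower. With median-of-ratios scaling 6 of the 16 were higher and 4 lower. Among blood miRNAs 4 of 4 tested were higher, or 2 with that scaling, with miR-146b-5p at 1.41 and miR-155-5p, induced in activated lymphocytes, at 2.70. miR-223-3p, the granulocyte miRNA, had no count in any library, and miR-144-3p of red cells had at most 1.006 CPM. Also under the filter, miR-342-3p had 1.61 CPM in K566A, against 10.4 CPM in wild type. Among epithelial miRNAs 4 of 5 were higher, miR-200c-3p (1.71) and miR-200a-3p (1.19) among them, and 1 was lower. Under median-of-ratios scaling 0 of these 5 were higher and 1 was lower. The broad miRNAs had 4 of 5 higher under both scalings, with miR-26a-5p at 2.39. miR-24-3p (-0.97) and the endothelial miR-221-3p (-0.59) and miR-222-3p (-0.85) were not called, and were called lower with median-of-ratios scaling.

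In the other mutants fewer of these listed miRNAs were called. In R792A_C793A 3 of 16 were higher, all from the blood list, with miR-155-5p at 1.69, miR-146b-5p at 1.47 and miR-146a-5p, named because of its value, at 3.48. Over all miRNAs 15.7% were higher there and 6.82% lower, and of the 7 miRNAs described above miR-126-5p, miR-126-3p and miR-21-5p were higher. None of the calls of miR-126-5p, miR-126-3p and miR-21-5p was kept with median-of-ratios scaling, under which 20 of all miRNAs were higher and 45 lower in place of 53 and 23. The 3 calls from the blood list were kept with that scaling. In GKT_GKGT none of the 7 was called, beside 11% of all miRNAs higher and 11.9% lower, and of the 16 listed miR-221-3p alone was lower (-1.46). Over all miRNAs 37 were higher and 40 lower there, or 44 and 25 with median-of-ratios scaling. In PGKTP_AAAAA 7.12% of all miRNAs were higher and 33.5% lower, or 60 and 56 miRNAs with that scaling in place of 24 and 113. There miR-126-3p and miR-21-5p were higher and none of the 7 was lower, both also with that scaling, while 5 of the 16 listed miRNAs were lower, or 3 lower and 2 higher with that scaling. In Q548A none of the 16 was called.

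The hairpins of miR-126, miR-142 and miR-203 each overlap a miRNA gene on the opposite strand in RefSeq. How strands were counted is not stated in the labels, so reads of either strand at these 3 loci cannot be told apart.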

How the data were processed

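RNA precipitated with Flag-Ago2 went through a NEBNext small RNA preparation and Illumina sequencing, per the labels' protocols. The deposited table holds raw counts per mature miRNA locus. The submitters' processing notes name CASAVA 1.8.2, TopHat2 2.0.9 and the mm9 build. Not given in the sources used here: the counter, the miRNA annotation and how multiply matching reads were assigned. Of 1078 rows, 116 were at 0 throughout. A name listed at several loci was counted once, by its highest locus, and 9 names with counts equal to another name's (within 1% or 3 counts, sum of at least 200) were merged, which left 950 miRNAs. CPM used the total over these.

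Ratios carry exact conditional 95% intervals. Arm shares carry Wilson intervals, and arm odds exact conditional intervals (Woolf where all 4 counts reached 500), with a pseudocount of 0.5 in the point value. Arms of a hairpin were compared when both arms summed to at least 100 over the 6 Ago2 libraries. The intervals of the ratios and of the arm odds were tested on data simulated with counting error alone, which leaves out variation between libraries. The Wilson and Poisson intervals were not tested. No replicate model could be fitted with 1 library per group. The labels name no molecular identifiers, so intervals cover counting error only. The miRNAs and lists were chosen with earlier results of these data known. Named are the 9 miRNAs, the other arms of their hairpins, the 3 nearest patterns of each that passed the filter, and the 2 most abundant of each tissue list; others are marked as chosen by value. Listed miRNAs' ratios have a pseudocount of 0.5 counts. Alternatives were TMM (edgeR 4.0.16), median-of-ratios scaling, totals without miR-292-5p, all rows, other filters, pseudocounts and folds, and thinning. Python 3.11.15 with scipy 1.17.1 was used.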

Additional observations from a re-analysis of the deposited data

How the results depend on the processing

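No paired analysis was possible because each group has 1 library. Counts of miRNAs called against wild type at 2-fold in either direction were, for K566A, Q548A, R792A_C793A, GKT_GKGT and PGKTP_AAAAA in that order, 226, 21, 76, 77 and 137. Without a level filter they were 387, 38, 125, 147 and 236, and with intervals past 4-fold 138, 1, 11, 28 and 47, since these settings test more miRNAs or ask for more. Of the 7 miRNAs described, 5 were higher in K566A, against 3 with median-of-ratios scaling, 3 with TMM, 2 with totals without miR-292-5p and 3 past 4-fold, and 1 was lower with each of these 3 scalings. The log2 ratio of miR-150-5p in K566A turned to -0.056 with totals without miR-292-5p. In R792A_C793A the 3 higher became 0 with each of the 3 scalings and past 4-fold, and past 4-fold the 1 in Q548A and the 2 in PGKTP_AAAAA became 0. Of the 16 other tissue miRNAs, the 12 higher and 1 lower in K566A became 6 and 4 with median-of-ratios scaling or TMM and 5 and 4 with totals without miR-292-5p. In PGKTP_AAAAA the 5 lower became 3 with each of the 3 scalings, and 2 became higher with median-of-ratios scaling or TMM. These scalings of the list were added after the data were seen.

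Against the empty control, the 1 higher in K566A became 0 with totals without miR-292-5p. The 1 lower in GKT_GKGT became 0 with median-of-ratios scaling, TMM or past 4-fold, and 1 became higher in PGKTP_AAAAA with median-of-ratios scaling. In wild type the 1 lower became 0 past 4-fold, where 1 of all miRNAs was called in place of 6. The lower level of miR-203-3p than in the empty control was called in every Ago2 library under each scaling and past 4-fold. Of the alternative values of arm odds, 59 kept their side of the threshold and 1 (miR-21-3p in K566A) did not. Among the 59 are those of miR-203, whose 5p arm had 0 counts in wild type and in every mutant except Q548A. In the mutants with 0 counts no call was possible under any of these settings. The empty control, with 33461 counts, limits each comparison with it, and K566A is the shallowest Ago2 library.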
